A study of Rattus norvegicus with 36 samples.

Results

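The genes described here carry the enzymes that attach ubiquitin and remove it again, and they were chosen by name. A gene was included when its symbol began with Ube2, with Uba and a digit, or with Usp, Uch, Otud or Otub, and when its probe set was annotated to that gene alone. The rule found 161 probe sets of 89 genes among 14217 genes on the array, and each gene was read from its probe set of highest mean log2 signal over all arrays. These genes comprised 5 activating enzymes (E1), 29 conjugating enzymes (E2), 44 ubiquitin specific peptidases (USP), 3 ubiquitin C-terminal hydrolases (UCH) and 8 ovarian tumor family peptidases (OTU). A name does not fix a function: Usp6nl is a GTPase activating protein rather than a peptidase, and Usp39 is a splicing factor without an active site.

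RNA from the left soleus, a slow postural hindlimb muscle, was hybridized to Affymetrix Rat Genome 230 2.0 arrays, with 1 array for each of 36 adult female Sprague Dawley rats of 16 weeks. The 6 groups of 6 rats were uninjured controls (CTR), rats 3, 8 or 14 days after a moderate contusion injury of the thoracic spinal cord (SCI3d, SCI8d and SCI14d), and injured rats that had walked on a treadmill in sessions of 20 min (SCI8d + TM and SCI14d + TM). Training began 7 days after injury in both trained groups. SCI8d + TM rats had 3 sessions and SCI14d + TM rats were trained on 5 days, and muscle was taken 8 h after the last session. Contusion spares a variable part of the cord, so the injured rats were models of incomplete paralysis. All values are MAS 5.0 signals, a summary of the fluorescence of a probe set on a linear scale, and they compare arrays for 1 probe set but not different genes. Groups were compared on the log2 scale with limma over 31042 probe sets, and a gene was called higher or lower at a Benjamini-Hochberg adjusted p under 0.05.

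Ubiquitin is first activated by an E1, is then passed to an E2, and is joined to a substrate by a ligase that pairs with that E2. The E2 often decides which kind of chain is built, while the peptidases trim chains, spare substrates and return free ubiquitin to the cell. In muscle that is no longer loaded, this pathway delivers contractile proteins to the proteasome, and a few enzymes of the same families handle related tags such as SUMO, NEDD8, UFM1 and ISG15.

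The tissue label was checked with 12 muscle genes, among them the slow fiber genes Myh7, Tnnt1 and Myl2 and genes of all skeletal muscle such as Ckm and Acta1, while fast fiber genes were not listed. On every array each of the 12 was at or above the 98.7th percentile of its probe sets. None of the 12 was called in any comparison with CTR. Yet 0 of 12 had a mean above CTR at SCI14d (median log2 fold change -0.31) or in SCI14d + TM (-0.18). Median signals of the arrays ran from 167.2 to 235.6. In the whole muscle homogenate, fewer cells of a type and less RNA per cell cannot be told apart. With 1 array per rat, the p-values measure the spread between rats. Over all arrays, 78 of the 89 genes averaged more than 6.728 on the log2 scale, the 40th percentile of the probe sets, and the other 11, among them Ube2t, are called dim here.

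These enzymes differed most often from CTR at SCI3d, mainly upward. At SCI3d, 20 of 89 genes were higher than in CTR (22.5%) and 8 were lower (8.99%), where 8.98% of all genes were higher and 12.6% were lower. The median log2 fold change was 0.18 over the 89 genes and -0.07 over all genes. On every array, 12 members were above and 5 were below the range of CTR, beside 4.64% and 6.19% of all genes. At SCI8d the counts were 5 higher and 3 lower (background 3.44% and 4.99%), with no overlap for 4 and 1 (background 1.37% and 2.33%). At SCI14d they were 2 higher and 2 lower (background 1.86% and 2.59%), with no overlap for 2 and 2 (background 1.23% and 1.86%). The members' share at SCI3d lay above the background for higher calls and under it for lower calls, and the shares at SCI14d were close to it.

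**Figure D1:**
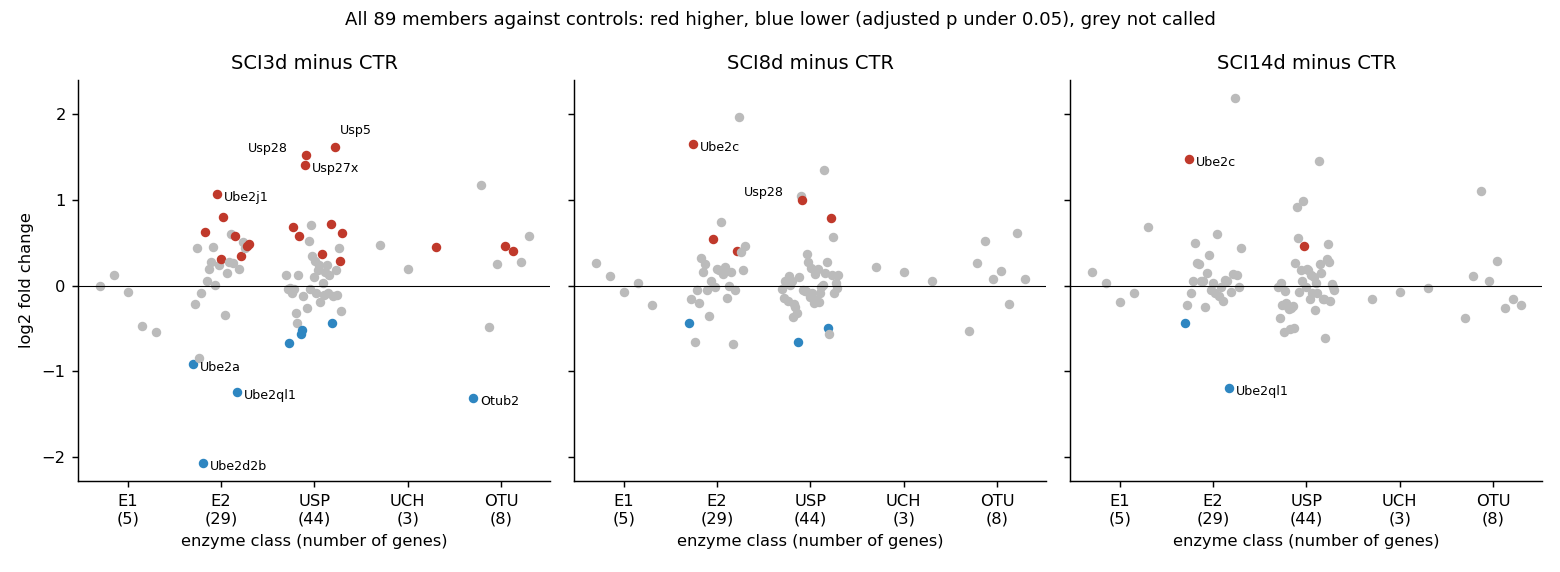
Each point is 1 of the 89 genes, placed by enzyme class on the x axis and by its log2 fold change against CTR on the y axis at SCI3d, SCI8d and SCI14d (n = 6 rats per group). Red points (20, 5 and 2) were called higher and blue points (8, 3 and 2) lower, grey points were not called, and names mark called genes with a change of at least 0.9 on the log2 scale.

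By class, the calls at SCI3d fell on E2 enzymes and peptidases and on none of the 5 E1 genes. Among E2 genes 8 of 29 were higher (27.6%) and 3 lower (10.3%), with a median log2 fold change of 0.28. Among USP genes 9 of 44 were higher (20.5%) and 4 lower (9.09%), with a median of 0.11. Of all genes, 8.98% were higher and 12.6% lower. The UCH genes had 1 of 3 higher, and the OTU genes 2 of 8 higher and 1 lower. The E1, UCH and OTU classes are too small to set against the shares of all genes. The difference between classes was not tested.

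No activating enzyme was called in any comparison with CTR. Uba1, the main E1 for ubiquitin, had a median signal of 5045 in CTR (4327 to 5516) and 4895 at SCI3d (4634 to 5812), a log2 difference of 0.00 (SE 0.09, adjusted p = 0.984). Its median was 6011 at SCI8d and 6141 in SCI8d + TM, a log2 difference from CTR of 0.27 in both, which was not called (adjusted p = 0.0873 and 0.0558). Uba6, the other ubiquitin E1, was measured at -0.47 at SCI3d (SE 0.22, adjusted p = 0.151). Uba2, which activates SUMO, was at 0.12 and Uba3, which activates NEDD8, was at -0.07. Uba7, the E1 for ISG15, varied widely between rats, from 17.4 to 244 at SCI3d and from 101 to 238 in CTR (-0.54, SE 0.43, adjusted p = 0.462). Each E1 group overlapped CTR at SCI3d. Nae1, the partner of Uba3 in the NEDD8 E1 and not among the 89 genes, was higher at SCI3d (0.77, SE 0.13, adjusted p = 3.82e-05).

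Among E2 enzymes, the most marked increase at SCI3d was that of Ube2j1, which is anchored in the endoplasmic reticulum and serves the degradation of misfolded proteins there. Its signal ran from 1158 to 1453 in CTR (median 1357) and from 2039 to 3523 at SCI3d (median 2845). The log2 fold change was 1.07 (SE 0.15, adjusted p = 5.88e-06), and the groups did not overlap. At SCI8d it ran from 1464 to 2188, still above every CTR array (0.55, adjusted p = 0.026), a call lost without either of CTR replicate 1 or CTR replicate 3, or without any of SCI8d replicates 2, 5 and 6. At SCI14d its median of 1754 was not called (0.36, adjusted p = 0.198). SCI14d was lower than SCI3d by direct comparison (-0.71, adjusted p = 0.00187). The other E2 enzymes of the same compartment, Ube2g1, Ube2g2 and Ube2j2, were at 0.28, 0.45 and 0.24 at SCI3d and were not called (adjusted p = 0.183, 0.0819 and 0.0606). Ube2g2 ran from 2749 to 6459 at SCI3d, wider than its CTR range of 3000 to 4086.

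Ube2l3, the E2 that charges ligases of the HECT and RBR families such as parkin, was called higher at SCI3d and in no other comparison with CTR. Its signals were 4665 to 7387 in CTR (median 6911) and 9152 to 16085 at SCI3d (median 11434). The log2 fold change was 0.80 (SE 0.13, adjusted p = 2.77e-05), without overlap. At SCI8d and SCI14d its medians were 7462 and 6635, and both groups lay wholly under the SCI3d range (-0.62 and -0.87 against SCI3d, adjusted p = 0.00229 and 2.05e-05). A second Ube2l3 probe set moved less, from a median of 3181 in CTR to 3575 at SCI3d, and was not called (0.28, adjusted p = 0.078).

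Smaller increases at SCI3d were found for Ube2e2, a relative of the UBCH5 enzymes, for Ube2v2, a partner of Ube2n without an active cysteine, and for Ube2z, which receives ubiquitin from Uba6. Ube2e2 rose from a median of 830 in CTR (749 to 919) to 1397 (891 to 1723), with overlap at the low end (0.63, SE 0.17, adjusted p = 0.00735). Ube2v2 rose from 1983 (1862 to 2404) to 2765 (2594 to 3362), without overlap (0.46, SE 0.10, adjusted p = 0.00177). Ube2z rose from 949 (884 to 1255) to 1433 (1134 to 1700), with overlap (0.49, SE 0.15, adjusted p = 0.023), a call lost without CTR replicates 2 or 4 or SCI3d replicate 2. With the mean of its probe sets in place of the brightest, Ube2z was called neither at SCI3d nor in SCI8d + TM. Ube2n, which builds chains linked through lysine K63 together with Ube2v2, was at 0.28 (SE 0.24, adjusted p = 0.492). The UBCH5 type enzymes moved in different ways, with Ube2d1 at -0.84 (adjusted p = 0.0594), Ube2d2 at -0.08 and Ube2e3 at 0.05. Ube2d1 lay under CTR on every SCI3d array (1492 to 4580 against 4683 to 5718), yet it missed the threshold, and at SCI8d it ranged from 2191 to 8811. Ube2q2 (0.58) and Ube2k (0.31) were also higher, and both were named here after their values were seen.

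The E2 enzymes lower at SCI3d were Ube2a, Ube2ql1 and Ube2d2b. Ube2ql1, a member of the Ube2q group, ran from 1163 to 1988 in CTR (median 1676) and from 315 to 1193 at SCI3d (median 818), with the highest SCI3d array just above the lowest CTR array. Its log2 fold change was -1.24 (SE 0.31, adjusted p = 0.00397), and a second probe set of Ube2ql1 was called in the same direction. At SCI14d it ran from 446 to 989, under every CTR array (-1.19, adjusted p = 0.0262), a call lost without CTR replicates 1 or 2 or SCI14d replicates 4, 5 or 6. In SCI14d + TM it ran from 913 to 2475 with a median of 1797, and the difference from CTR was 0.00 (adjusted p = 0.998). Ube2d2b fell by 2.07 at SCI3d, but its probe set was 1 of the 11 dim ones, and it was named after its values were seen.

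Ube2a, an E2 of the RAD6 type that acts on histone H2B, gave an answer that depended on the probe set. The brighter probe set ran from 2491 to 3617 in CTR (median 3043) and from 1170 to 1909 at SCI3d (median 1685), without overlap (-0.91, SE 0.12, adjusted p = 2.85e-06). It was also lower at SCI8d (-0.43, adjusted p = 0.0296), SCI14d (-0.43, adjusted p = 0.0469) and SCI8d + TM (-0.37, adjusted p = 0.0472), and each of these later calls was lost without 6 to 9 of the 12 arrays in turn. The second probe set, nearly as bright, ran from 1975 to 2515 in CTR and from 2046 to 2686 at SCI3d (-0.02, adjusted p = 0.921). The direction of Ube2a therefore holds for 1 of its probe sets, and which transcripts each one reads was not tested. For Ube2b, its close relative in rat muscle, the probe set brightest over all arrays was at -0.21 at SCI3d (adjusted p = 0.284). A second Ube2b probe set was lower (-0.63, adjusted p = 0.0142), with medians of 20064 in CTR and 13961 at SCI3d. In CTR the median of the first was 18084. The second had medians of 12257 at SCI8d, 11944 in SCI8d + TM, 12532 at SCI14d and 16375 in SCI14d + TM.

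At SCI3d, the ubiquitin specific peptidases Usp5 and Usp28 had the largest increases of the 89 genes. Usp5, also known as isopeptidase T, takes apart unanchored ubiquitin chains. Its signal was 2038 to 2540 in CTR (median 2265) and 4589 to 11616 at SCI3d (median 6791), so the lowest SCI3d array stood well above the highest CTR array. The log2 fold change was 1.62 (SE 0.20, adjusted p = 8.98e-07). At SCI8d it ran from 2302 to 6289 (median 4340), overlapping CTR (0.79, SE 0.20, adjusted p = 0.0151), a call lost without SCI8d replicate 2, and at SCI14d from 2096 to 3677 (0.31, adjusted p = 0.444). Both later groups were lower than SCI3d (-0.83 and -1.31, adjusted p = 0.0099 and 5.01e-05). Usp13, its closest relative, was at -0.09 at SCI3d (SE 0.17, adjusted p = 0.781), with medians of 17883 in CTR and 18231 at SCI3d.

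Usp28, a nuclear peptidase known for stabilizing Myc, was called higher at SCI3d, at SCI8d and in SCI8d + TM. Its signal ran from 2967 to 3428 in CTR (median 3117) and from 4668 to 13002 at SCI3d (median 10723), without overlap (1.52, SE 0.24, adjusted p = 2.99e-05). It was still above every CTR array at SCI8d, from 3479 to 9627 (1.0, adjusted p = 0.0108), and in SCI8d + TM, from 5182 to 8798 (1.06, adjusted p = 0.00371). At SCI14d it ran from 2112 to 6491 and was not called (0.56, adjusted p = 0.201). In SCI14d + TM all 6 arrays, from 3879 to 4920, lay above CTR, but the difference was not called either (0.51, adjusted p = 0.392).

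Peptidases that work at the proteasome rose at SCI3d. Usp14, which sits on the regulatory particle and trims chains there, went from a median of 7416 in CTR (6597 to 8583) to 11606 (10310 to 16080), without overlap (0.68, SE 0.12, adjusted p = 7.43e-05). By SCI8d and SCI14d its medians were 8628 and 7429, and both groups were lower than SCI3d without overlap (-0.56 and -0.73, adjusted p = 0.00246 and 7.03e-05). Uchl5, which binds the same particle, went from 2518 (2397 to 2666) to 3050 (2572 to 6170), with overlap (0.45, SE 0.14, adjusted p = 0.022), a call lost without SCI3d replicate 3 or SCI3d replicate 4. Psmd14, the metalloprotease of that particle and not among the 89 genes, was higher as well (1.02, adjusted p = 3.83e-06). The other UCH genes, Uchl1 of neurons and Uchl3, were at 0.48 and 0.20 and were not called (adjusted p = 0.351 and 0.282).

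**Figure D2:**
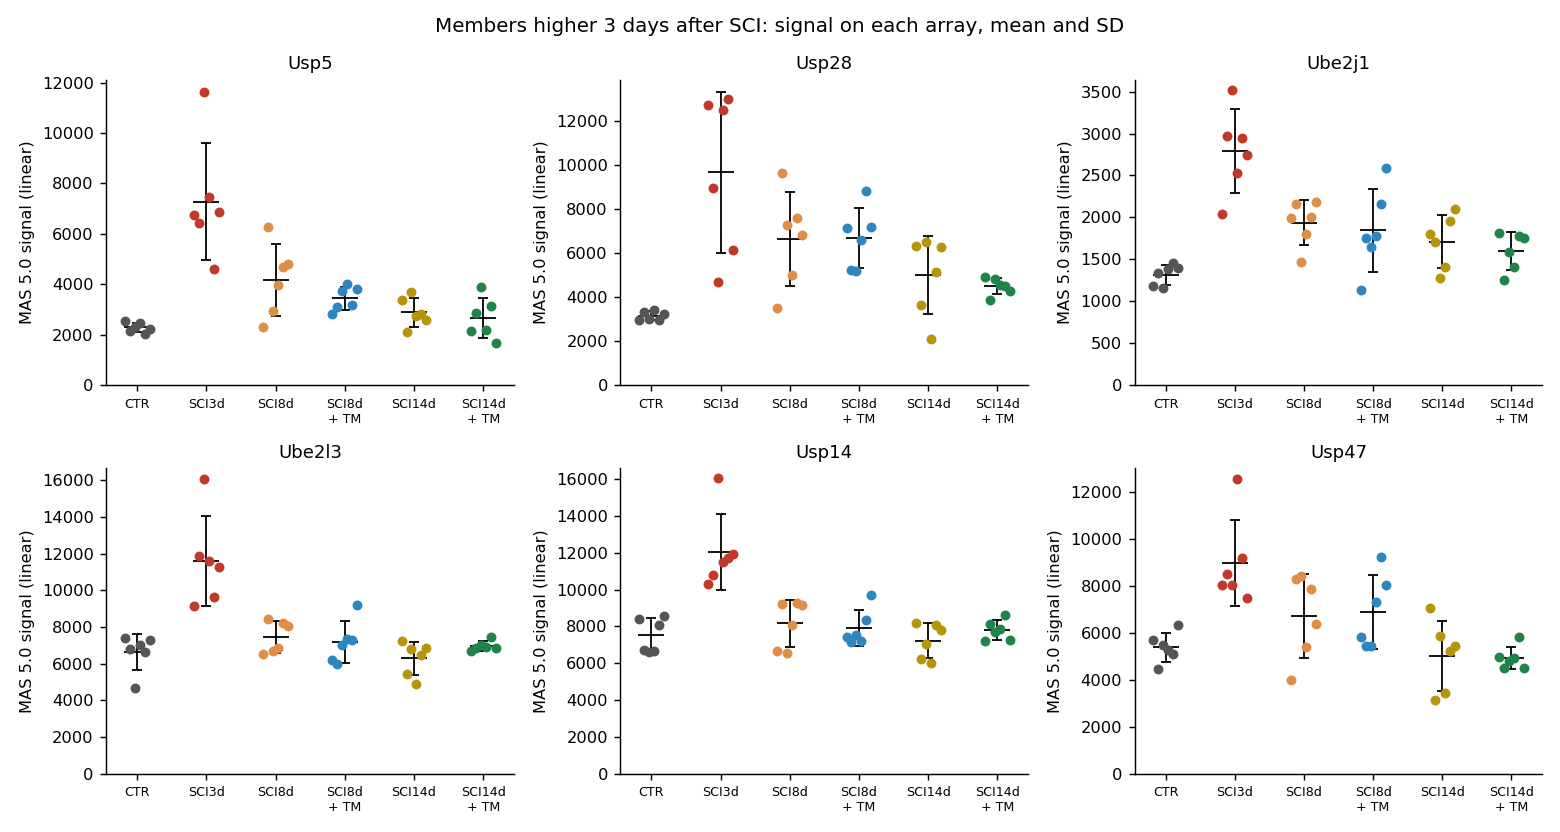
Signal on each array (points, linear scale from 0) of Usp5, Usp28, Ube2j1, Ube2l3, Usp14 and Usp47 in the 6 groups, with the mean and SD (bars, n = 6 rats per group). In each panel the 6 SCI3d arrays lie above all 6 CTR arrays, and at SCI14d the ranges overlap CTR again.

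Other USP genes higher at SCI3d had a range of roles. Usp47, a peptidase of base excision repair, rose from a median of 5377 (4480 to 6349) to 8273 (7503 to 12543), without overlap (0.72, SE 0.18, adjusted p = 0.00415), and its second probe set was called in the same direction. Uspl1, which removes SUMO rather than ubiquitin, rose from 1192 (906 to 1292) to 1597 (1482 to 2500), without overlap (0.61, SE 0.17, adjusted p = 0.0115). Usp8, a peptidase of endosomes, showed a small increase, from 1893 (1825 to 2117) to 2312 (2020 to 2838), with overlap (0.29, SE 0.10, adjusted p = 0.0402), a call lost without 9 of 12 arrays in turn. Usp27x (1.41, a dim probe set), Usp20 (0.58) and Usp39 (0.37) completed the 9 and were named after their values were seen. The peptidases of mitochondria and of ISG15, Usp30 and Usp18, were at -0.04 and -0.32 and were not called.

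Lower at SCI3d were Usp11, Usp21, Usp24 and Usp48. Usp11, a nuclear peptidase, fell from a median of 1465 (1229 to 1772) to 968 (542 to 1190), without overlap (-0.67, SE 0.15, adjusted p = 0.00164), and at SCI8d it ran from 1284 to 2034, above every SCI3d array (0.73 against SCI3d, adjusted p = 0.00248). Usp21, which acts on histone H2A, fell from 977 (751 to 1178) to 675 (512 to 711), without overlap (-0.56, SE 0.15, adjusted p = 0.00767). Usp3 and Usp49, which also act on histones, were at 0.52 (adjusted p = 0.058) and -0.12 (adjusted p = 0.908). Usp24 fell from 3291 (2969 to 3959) to 2244 (2073 to 3182) at SCI3d, with overlap (-0.52, adjusted p = 0.0402), and this call was lost without 9 of 12 arrays in turn. It was lower again at SCI8d (-0.66, adjusted p = 0.0202), a call lost without SCI8d replicate 2 or 4. In SCI8d + TM it ran from 1422 to 2750, under every CTR array (-0.88, adjusted p = 0.0013). Usp48 was lower at SCI3d (-0.44, adjusted p = 0.0185) and at SCI8d, where 597 to 773 lay under the CTR range of 920 to 1173 (-0.50, adjusted p = 0.0186). The SCI3d call was lost without CTR replicate 3 or SCI3d replicates 3 or 4, and the SCI8d call without SCI8d replicate 2. Other probe sets of Usp24 and Usp48 were at -0.21 and -0.09 at SCI3d and were not called. At SCI8d the other Usp48 probe set was at 0.40 (221 to 303 in medians, adjusted p = 0.208), against the direction of the brightest, and with the mean of its probe sets none of the 3 Usp48 calls against CTR was kept.

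Among OTU peptidases, Otub2 fell and Otud5 rose. Otub2 ran from 220 to 387 in CTR (median 331) and from 62.8 to 161 at SCI3d (median 153), without overlap (-1.31, SE 0.25, adjusted p = 0.000306). Another Otub2 probe set was called in the same direction. By SCI14d its median was 263, higher than at SCI3d (0.94, adjusted p = 0.0119). Otud5, a peptidase known from interferon signaling, rose from a median of 1567 (1432 to 1962) to 2159 (1879 to 2540), with overlap (0.46, SE 0.09, adjusted p = 0.0004). Otud6b rose from 2728 (2296 to 3605) to 3722 (2614 to 5354), with overlap (0.40, adjusted p = 0.0465), a call lost without 8 of 12 arrays in turn. Otud7b was at 0.58 and missed the threshold (adjusted p = 0.0554). Its other probe sets also had higher medians at SCI3d than in CTR (1277 against 811, and 724 against 535).

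**Figure D3:**
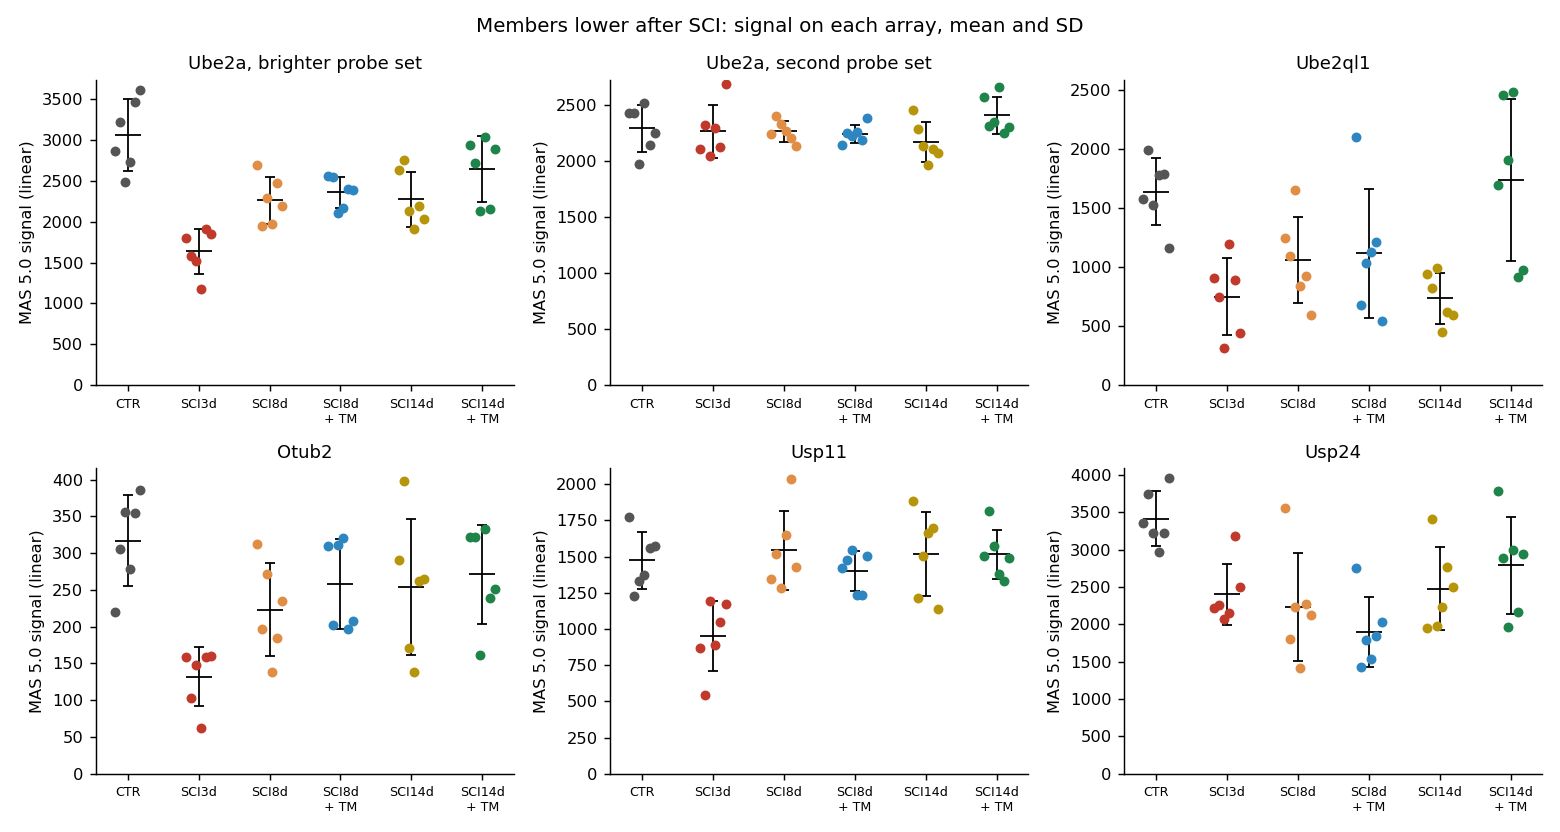
Signal on each array (points, linear scale from 0) of the brighter and the second Ube2a probe set and of Ube2ql1, Otub2, Usp11 and Usp24 in the 6 groups, with the mean and SD (bars, n = 6 rats per group). The brighter Ube2a probe set has its SCI3d arrays at 1170 to 1909 and its CTR arrays at 2491 to 3617, while the second overlaps between these groups.

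Across probe sets, 14 of the 28 genes called at SCI3d had at least 1 other probe set, 19 in all. Of these 19, 17 had the same sign, and the genes with another probe set called in the same direction were Otub2, Ube2q2, Ube2ql1, Ube2z, Usp20 and Usp47. None of the 28 genes had a probe set called in the opposite direction. This check leaves out genes whose brightest probe set was not called, and probe sets could conflict there too. For Usp19, named after its values were seen, the brightest went from a median of 1818 in CTR to 1279 at SCI3d, with overlap. Its second probe set went the other way, from 640 (550 to 714) to 1201 (1004 to 1357), without overlap.

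The promoters of the named genes with the largest changes at SCI3d, leaving aside dim ones, are shown to place these measurements beside sequence, as descriptions only. RefSeq promoters (GRCr8) were held for 73 of the 89 genes, 76 promoters in all, and the 250 bases before the start site were searched on both strands for the antioxidant element TGACNNNGC, the FoxO element GTAAACA, the CCAAT box CCAAT and the AP-1 element TGANTCA, where the first and the last can overlap and both be counted. The Usp5 promoter (chr4:159320957-159321206, minus strand) held 3 CCAAT boxes, read as ATTGG on the gene's strand, and 1 AP-1 element, shown in capitals. The Usp28 promoter (chr8:58222179-58222428, plus strand) held none of the 4 motifs, although both genes rose at SCI3d. The Otub2 promoter (chr6:128309613-128309862, plus strand) held 1 CCAAT box. That of Ube2ql1 held none of the 4 motifs and is not shown.
Usp5: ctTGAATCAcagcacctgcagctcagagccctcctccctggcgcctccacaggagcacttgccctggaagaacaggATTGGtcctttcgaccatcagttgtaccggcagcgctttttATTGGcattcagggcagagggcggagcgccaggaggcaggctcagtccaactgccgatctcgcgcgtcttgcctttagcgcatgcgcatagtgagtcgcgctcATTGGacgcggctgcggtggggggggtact
Usp28: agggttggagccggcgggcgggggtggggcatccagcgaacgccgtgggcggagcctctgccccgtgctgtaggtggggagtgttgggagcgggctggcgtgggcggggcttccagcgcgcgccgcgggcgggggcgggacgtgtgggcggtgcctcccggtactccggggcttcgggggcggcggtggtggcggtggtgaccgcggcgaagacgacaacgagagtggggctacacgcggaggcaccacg
Otub2: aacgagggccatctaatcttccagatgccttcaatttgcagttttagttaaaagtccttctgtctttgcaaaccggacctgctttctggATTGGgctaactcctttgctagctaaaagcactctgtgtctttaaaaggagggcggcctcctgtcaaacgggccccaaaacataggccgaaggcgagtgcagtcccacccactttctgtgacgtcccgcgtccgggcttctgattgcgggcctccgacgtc

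The antioxidant element was in 10.1% of all 33469 promoters, in 15 of 76 member promoters (19.7%) and in 6 of the 19 promoters of members higher at SCI3d (31.6%). It was in 0 of 7 promoters of members lower at SCI3d and in 9 of 50 of those not called (18%). The 6 genes were Ube2j1, Ube2q2, Ube2s, Uchl5, Usp14 and Usp20. The matches of 3 of them are shown as examples with 10 bases on each side, the match in capitals. Ube2j1 held 2 (chr5:52218720-52218748 and chr5:52218758-52218786, plus strand), Ube2s held 1 (chr1:78057511-78057539, plus strand) and Uchl5 held 1 (chr13:58071015-58071043, plus strand). CCAAT was in 34.0% of all promoters and in 19 of the 76 (25.0%), with 4 of 7 among members lower at SCI3d (57.1%) and 4 of 19 among those higher (21.1%). TGANTCA was in 6.34% and in 4 of 76, and GTAAACA in 3.21% and in 1 of 76.
Ube2j1, first match: cgaagtgactGCCACGTCAggccgacttc
Ube2j1, second match: gcgccggcggTGACGCAGCggcgcgtcgg
Ube2s: acgtgcgcgtTGACGTAGCagcccagacg
Uchl5: gcgcggcaggTGACGGCGCccggaggctg

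By the later days, part of these differences had become smaller by direct comparison with SCI3d. Against SCI3d, 6 members were higher and 10 lower at SCI8d (background 4.75% and 4.47%), and 5 were higher and 19 lower at SCI14d (background 10.7% and 6.82%). Of the 20 genes higher at SCI3d, 7 were lower at SCI8d than at SCI3d and 13 were lower at SCI14d than at SCI3d. Of the 8 genes lower at SCI3d, 3 were higher at SCI8d and 4 were higher at SCI14d than at SCI3d. These comparisons share the SCI3d arrays with those against CTR, so an SCI3d array that was high or low by chance counts in both. The same shares among all genes called at SCI3d were not counted. The return toward CTR is therefore not shown to be particular to these enzymes. With signals scaled to Gapdh instead, the SCI14d split against SCI3d turned to 8 higher and 4 lower, and the members' median log2 difference from -0.17 to 0.04, while the median of all probe sets went from 0.13 to 0.34.

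Averaged over the 20 genes, a set chosen on SCI3d itself, the mean log2 deviation from CTR was 0.69 ± 0.10 (SD, n = 6) at SCI3d, 0.29 ± 0.20 at SCI8d and 0.13 ± 0.09 at SCI14d. It was 0.28 ± 0.16 in SCI8d + TM and 0.13 ± 0.06 in SCI14d + TM. Of the 5 genes higher at SCI8d, Ube2j1, Ube2s, Usp28 and Usp5 were among the 20 of SCI3d, and all 3 genes lower at SCI8d (Ube2a, Usp24 and Usp48) were among the 8. No gene higher at SCI14d was among the 20, and both genes lower at SCI14d (Ube2a and Ube2ql1) were among the 8. Since all of these were set against the same CTR arrays, the overlaps are no independent support.

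Among the E2 enzymes of dividing cells, Ube2c was called against CTR at SCI8d, at SCI14d and in SCI8d + TM, and not at SCI3d. Ube2s was called at SCI3d, at SCI8d and in SCI8d + TM, and Ube2t in SCI8d + TM. Ube2c, which starts chains for the anaphase-promoting complex, ran from 73.7 to 153 in CTR (median 109) and from 79.1 to 278 at SCI3d (median 147, 0.44, adjusted p = 0.497). At SCI8d it ran from 163 to 553 (median 370), above every CTR array (1.65, SE 0.38, adjusted p = 0.00689). At SCI14d it ran from 120 to 590 (median 354, 1.48, adjusted p = 0.0247), with overlap, a call lost without CTR replicate 1 or SCI14d replicates 3, 4 or 6. SCI8d + TM held its highest values, from 169 to 1069 (median 445), again above every CTR array (2.09, adjusted p = 0.000481). In SCI14d + TM it was at 1.38 and was not called (adjusted p = 0.0951).

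Ube2s, which lengthens the chains that Ube2c starts, had smaller differences. Its signals were 2426 to 3959 in CTR (median 3286), 3621 to 4717 at SCI3d (0.35, adjusted p = 0.0148), 4229 to 4649 at SCI8d (0.41, adjusted p = 0.0135) and 3843 to 4590 in SCI8d + TM (0.40, adjusted p = 0.01). The SCI8d arrays all lay above CTR, the other groups overlapped it, and the SCI3d call was lost without CTR replicate 3. With the mean of all its probe sets in place of the brightest, none of these 3 Ube2s calls was kept.

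Ube2t, an E2 of DNA crosslink repair read by a dim probe set, ran from 6.45 to 37.1 in CTR (median 20.2), from 17.6 to 127 at SCI8d (median 93.3) and from 82.1 to 295 in SCI8d + TM (median 119). The difference was called in SCI8d + TM alone (2.98, SE 0.67, adjusted p = 0.00312), without overlap. Markers of cell division differed between the groups too, though not in step with every Ube2s call. Of 24 measured cell cycle markers, 1 was higher at SCI3d, 8 at SCI8d, 9 at SCI14d, 20 in SCI8d + TM and 3 in SCI14d + TM, and 1 was lower, at SCI3d. The mean log2 deviation of that list ran from -0.24 to 0.34 on CTR arrays and from -0.51 to 0.87 at SCI3d. It ran from 0.16 to 2.18 at SCI8d and from 0.66 to 2.50 at SCI14d. In SCI8d + TM it ran from 1.5 to 3.34, and in SCI14d + TM from 0.02 to 2.16. The part of dividing cells in the Ube2c, Ube2s and Ube2t differences was not tested.

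**Figure D4:**
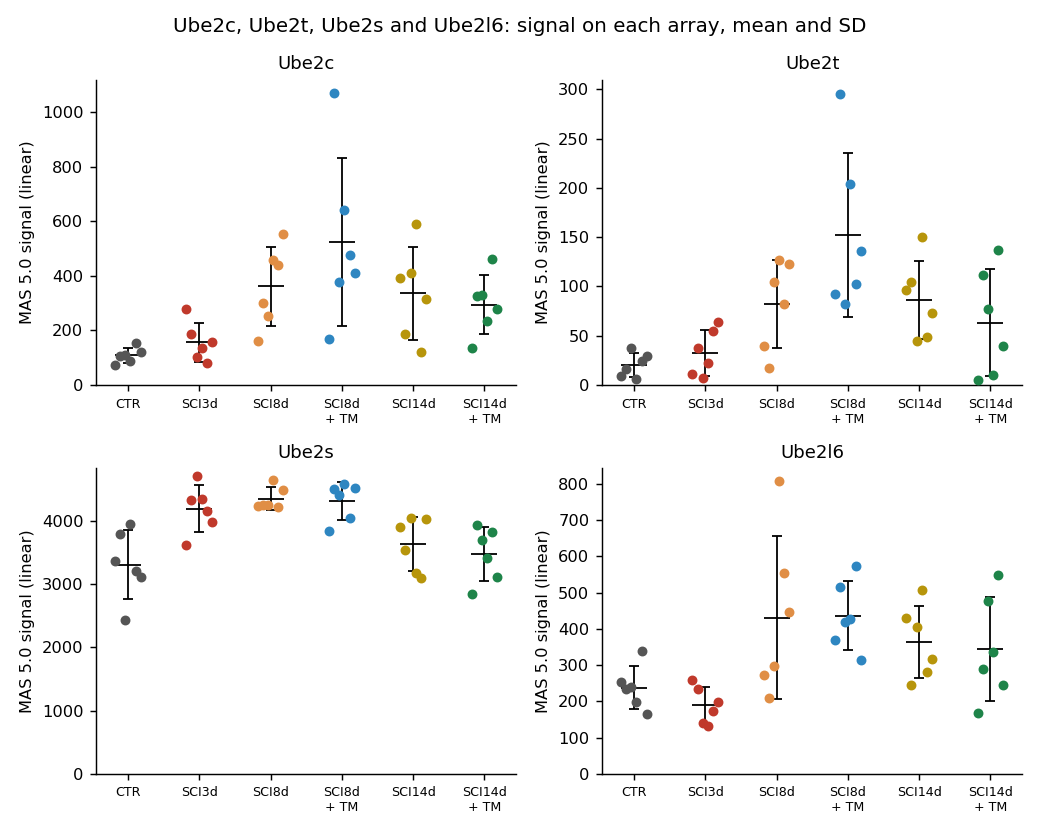
Signal on each array (points, linear scale from 0) of Ube2c, Ube2t, Ube2s and Ube2l6 in the 6 groups, with the mean and SD (bars, n = 6 rats per group). Ube2c is at 73.7 to 153 in CTR, 163 to 553 at SCI8d and 169 to 1069 in SCI8d + TM.

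Other cell type markers differed from CTR too, and their part in the members' differences was not tested. At SCI3d, 8 of 11 adipocyte markers were lower, with a list mean of -2.04 to -0.88 on SCI3d arrays and -0.50 to 0.61 on CTR arrays, and 3 of 5 red blood cell markers were higher, from 0.73 to 2.60 against -0.50 to 0.64. Of 6 measured tendon markers, 5 were lower at SCI3d (median log2 fold change -2.22), with a list mean of -3.67 to -1.63 on SCI3d arrays and -1.99 to 1.03 on CTR arrays. Macrophage markers had 1 of 18 higher and 1 lower at SCI3d, with a list mean of -0.49 to 1.04 against -0.40 to 0.53 in CTR. In SCI8d + TM, 4 of 18 macrophage markers (0.18 to 1.46) and 7 of 13 fibroblast markers were higher, the latter from 0.87 to 1.26 against -0.77 to 0.84 in CTR.

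Treadmill training was then set against its untrained group of the same day. Against CTR, SCI8d + TM had 6 members higher and 4 lower (background 7.4% and 8.72%), and SCI14d + TM had 0 of 89 in either direction (background 0.394% and 0.106%), with 7 at an unadjusted p under 0.05 (7.87%, beside 14.4% of all genes). Between SCI8d + TM and SCI8d no member was called (0 of 89 in limma, background 0% in each direction), and 2 (2.25%) had an unadjusted p under 0.05, beside 4.11% of all genes. Between SCI14d + TM and SCI14d 0 of 89 were called (background 0% in each direction), and 4 (4.49%) had an unadjusted p under 0.05, beside 6.9% of all genes. The test of whether the training effect differed between the days called 0 of 89 (background 0% in each direction), and 5 (5.62%) had an unadjusted p under 0.05, beside 5.7% of all genes.

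The members in SCI8d + TM that stood apart from CTR but not at SCI8d were Ube2l6, Ube2t, Ube2z and Usp4. None of them was called in the direct comparison of trained with untrained rats. Ube2l6, the E2 for ISG15, ran from 165 to 340 in CTR (median 237), from 209 to 809 at SCI8d (median 372) and from 313 to 573 in SCI8d + TM (median 422). It was called in SCI8d + TM (0.88, SE 0.28, adjusted p = 0.0322) and not at SCI8d (0.74, adjusted p = 0.106), and the trained and untrained groups differed by 0.14 (adjusted p = 1.0). Its call was lost without 6 of 12 arrays in turn. Usp4 ran from 1884 to 2473 in SCI8d + TM, under the CTR range of 2700 to 3216 (-0.44, adjusted p = 0.00323), and was at -0.25 against SCI8d (SE 0.10, adjusted p = 1.0). A second Usp4 probe set had medians of 1207 in CTR and 1208 in SCI8d + TM, and the call was lost with the mean of the probe sets (adjusted p = 0.251).

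The training differences of smallest p on day 14 were those of Ube2ql1, Usp54 and Usp13. Ube2ql1 had a median of 718 at SCI14d (446 to 989) and 1797 in SCI14d + TM (913 to 2475), so the ranges met only at their edges. The log2 difference was 1.19 (SE 0.31, adjusted p = 0.313), and the change of this effect between days was 1.18 (SE 0.43, adjusted p = 0.918). Usp54 had medians of 600 and 382 (-0.53, adjusted p = 0.664), and Usp13 of 11934 and 16564 (0.45, adjusted p = 0.743), with overlap in both. On day 8 the smallest p values belonged to Ube2h (-0.35, SE 0.14), Usp4 and Uba2 (0.19, SE 0.10), none of them called.

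At SCI14d, Usp32, a peptidase anchored in Golgi and endosome membranes, was the remaining gene called higher. It ran from 558 to 1001 in CTR (median 717) and from 768 to 1380 at SCI14d (median 973), with overlap (0.46, SE 0.13, adjusted p = 0.0458). The call was lost without 9 of 12 arrays in turn. In all, 33 of the 89 genes were called in at least 1 of the 5 comparisons with CTR and 56 in none, beside 31.7% of all genes called in at least 1, and Ube2a was called in 4 of them.

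The pathway around these families was read from lists of other genes at SCI3d, where 8.98% of all genes were higher than in CTR and 12.6% lower. The lists are short, and their differences from these shares were not tested. Of 20 peptidases of other families, 5 were higher at SCI3d and 1 lower, with Psmd14 leading, and Josd2 (0.95) and Cops5 (0.54), the catalytic subunit of the signalosome that removes NEDD8, also higher. Of 12 E1, E2 and chain extending enzymes outside the name rule, 3 were higher (Nae1, the UFM1 conjugating enzyme Ufc1 at 0.69, and Ube4b at 0.61) and 2 were lower (Aktip at -0.52 and the autophagy enzyme Atg10 at -1.27). Of 10 ubiquitin-like modifiers 3 were higher, namely Gabarapl1 (0.82), Ufm1 (0.45) and Atg12 (0.40), and of 13 peptidases for such modifiers 2 were higher and 2 lower, with the SUMO peptidases Senp6 at 0.66 and Senp7 at -1.25. Of 9 muscle ligases 2 were higher, Trim63 (0.95) and Cblb (0.62), and 2 lower, Fbxl22 (-3.20) and Trim32 (-0.73). The ligase list had 3 of 9 means above CTR and a median of -0.34, and Fbxo32 was not called (-0.60, adjusted p = 0.281). Of the ubiquilins, which shuttle ubiquitinated proteins to the proteasome, Ubqln1 was higher (0.64) and Ubqln4 lower (-1.20).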

How the data were processed

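The authors deposited MAS 5.0 signal intensities of 31099 probe sets for each array, scaled so that the trimmed mean of an array, without the top and bottom 2 percent, was 799.99. Detection calls were not used here. Control probe sets (57) were left out. Symbols came from the platform annotation, with 20826 probe sets of 1 symbol, 436 of several and 9780 of none, and 10 probe sets with several symbols of the chosen kind were left out. The 89 Entrez identifiers were all in RefSeq. All 36 columns were matched to samples by their labels.

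Log2 signals were fitted in 1 linear model of the 6 groups with limma 3.58.1 in R 4.3.3 (eBayes with intensity trend, 30 residual and 5.45 prior degrees of freedom), with Benjamini-Hochberg adjustment over all probe sets and a threshold of 0.05. The procedure was tested on simulated data. A background percentage is the share of all 14217 genes called by the same rule, with 1 probe set per gene. The number of arrays limits the precision.

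Members and lists of genes were chosen with earlier results of these data known. Named in the text were, for each comparison with CTR, up to 8 called members at either end of the log2 fold change with a signal above the 40th percentile, the 3 members of smallest p on day 3 in each class and in each training comparison, and examples of each role. Alternatives were quantile normalization, median centring, scaling to Gapdh (a probe set whose annotation also names a paralog), no intensity trend and array weights. The model was also run with the groups of a comparison alone, with a replicate block and with a term for replicates 5 and 6. Further alternatives were the methods' t-test, other rules for probe sets and dim signals, the GAPDH 3' to 5' ratio, and leaving out each array. Plots used matplotlib 3.10.9 (Python 3.11.15).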

Additional observations from a re-analysis of the deposited data

Results flagged for a closer look

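In 312 sets of 6 arrays (52 named members in 6 groups), Dixon's test found 1 array apart from the rest in 14, where chance gives about 1 in 20. The ratio is the gap to the nearest array over the range of the group. Uba7 was low on SCI3d replicate 2 (0.74) and SCI14d + TM replicate 1 (0.805) and high on SCI8d replicate 1 (0.645). Ube2d1 (0.727) and Usp21 (0.675) were also high on SCI8d replicate 1. On SCI3d replicate 3, Usp14 was high (0.673) and Usp21 was low (0.79). On SCI14d + TM replicate 5, Ube2f was high (0.67) and Ube2g2 was low (0.697). Ube2l3 was low on CTR replicate 3 (0.777), Ube2b low on SCI14d replicate 4 (0.708) and Ube2h high on SCI14d replicate 2 (0.833). Usp32 was high on SCI8d replicate 5 (0.686), and Usp48 was low on SCI8d + TM replicate 5 (0.679). The day 3 calls of Ube2l3, Usp14 and Usp21 were kept without each of these arrays.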

How the results depend on the processing

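Counts of called members moved with the scaling, the array weights and the test, and the cause was not tested. Scaled to Gapdh, the counts were 13 at SCI3d, 2 at SCI8d and 4 in SCI8d + TM against CTR (28, 8 and 10 as reported), and 5 at SCI8d and 12 at SCI14d against SCI3d (16 and 24 as reported). This scaling moved the median log2 difference of all probe sets at SCI14d against CTR from 0.08 to 0.32. Median centring gave 25 and 40 against SCI3d, and its splits were 30 higher and 6 lower at SCI3d, 1 and 5 at SCI14d and 3 and 11 in SCI8d + TM against CTR. Quantile normalization gave 2 at SCI14d, and 12 higher and 3 lower in SCI8d + TM. Array weights gave 15 at SCI8d, 11 at SCI14d, 21 in SCI8d + TM and 1 in SCI14d + TM. The groups of a comparison alone gave 17 in SCI8d + TM and 2 in SCI14d + TM against CTR, and 1 and 13 at SCI8d and SCI14d against SCI3d. The methods' t-test after Benjamini-Hochberg gave 4, 1, 17 and 1 for SCI8d, SCI14d, SCI8d + TM and SCI14d + TM against CTR, and 0 and 9 against SCI3d. The mean of the probe sets of a gene gave 4, 2 and 6 for SCI8d, SCI14d and SCI8d + TM, and 1 probe set per gene in the adjustment gave 7 at SCI14d and 16 in SCI8d + TM. Without an intensity trend 2 were called at SCI14d. Without the 3 arrays of highest GAPDH ratio (CTR replicate 3, SCI14d replicate 4 and SCI14d + TM replicate 1), 1 was called at SCI14d and 1 in SCI14d + TM. The comparisons of trained with untrained rats called 0 members under every alternative run.

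Leaving out 1 array in turn gave 23 to 33 calls at SCI3d, 4 to 12 at SCI8d, 0 to 7 at SCI14d, 7 to 17 in SCI8d + TM and 0 to 1 in SCI14d + TM against CTR, 9 to 19 and 20 to 27 at SCI8d and SCI14d against SCI3d, and 0 to 0 for training on day 8, on day 14 and the difference between them. The SCI8d count was 4 without SCI8d replicate 2, the SCI8d + TM count was 17 without SCI8d + TM replicate 1, and the SCI14d + TM count was 1 without SCI14d + TM replicate 1. The count at SCI8d against SCI3d was 10 without SCI3d replicate 4, SCI8d replicate 3 or SCI8d replicate 5 and 9 without SCI8d replicate 4. The SCI14d count changed without each of the 12 arrays: it was 0 without CTR replicate 1 or SCI14d replicates 4 or 6, 1 without CTR replicate 2 or SCI14d replicate 5, 2 without CTR replicates 4, 5 or 6 or SCI14d replicate 3, and 7 without CTR replicate 3 or SCI14d replicates 1 or 2.

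Replicate numbers are shared between groups. Over the probe sets that were not dim, 30 of 90 pairs of arrays with the same number had a correlation of deviations over 0.1. The mean over the 90 pairs was 0.0307 and the highest was 0.518. Of 36 arrays, 10 were closest to their own number. On these values the numbers were not taken to pair the samples, but the correlations do not test replicates 5 and 6 as a set. Some members did follow the numbers: after their values were seen, Ube2d2 was found lowest on replicate 6 in all 6 groups, and Ube2m, Ube2n, Ube2r2 and Usp7 were lowest on replicate 5 or 6 in all 6. With the replicate number as a block, 29, 9, 4, 14 and 0 members were called against CTR, 15 and 26 against SCI3d, and 0, 0 and 0 for training. Of the values of single named genes, 1002 kept their direction and side of the threshold under the other alternatives, 166 were no longer called and 1 reversed: Usp13 in SCI14d + TM against SCI14d was -0.02 as the mean of its probe sets. The SCI3d calls of Ube2a, Ube2e2, Ube2j1, Ube2l3, Ube2ql1, Otub2, Usp14, Usp28, Usp47 and Usp5 were kept under every alternative run and without each array. The t-test was not run for the difference between training effects, and the filter on dim signals gives no value for Ube2t.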
